A study of Mus musculus with 2 samples.

Results

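The intermediate squamous cells of the esophageal epithelium are the cells between the keratin-building layer just above the base and the flattened surface layer. In the wild-type library the name stands for 628 cells, whose place in the tissue was not measured. These cells made up 10.9% of the 5787 wild-type cells that passed the filter and 7.65% of the 8209 cells of both libraries. They were chosen by their own counts, as cells with at least 500 genes, at least 1000 UMIs (unique molecular identifiers, 1 per captured RNA molecule) and at most 10% mitochondrial UMIs in which 3 sums met a threshold. Per 10000 UMIs of the cell (CP10K), Krt13 and Krt4 together had to reach 200, the surface genes Cnfn, Nccrp1, Crct1, Ltf and Ppbp had to stay under 4, and the mitosis genes Mki67, Top2a, Nusap1 and Ube2c under 10. The other 1348 wild-type cells with at least 60 CP10K of the 2 keratins served for comparison. They were split into 908 cells with less keratin (60 to 200, the lower keratin band), 387 cells with the surface genes at 4 or more (superficial-gene cells) and 53 cells with the mitosis genes at 10 or more.

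The study profiled dissociated esophageal epithelium of C57BL/6 mouse embryos at E18.5 (counted in days of development) in 2 droplet libraries of 3' RNA ends, which the labels call wild type and p63-KO. The wild-type embryos were, by the same labels, littermate controls of the genotype p63-CreER, so they carried the targeted allele too, and the p63-KO embryos were p63-CreER/p63-CreER. The labels describe neither which part of the gene the allele removes nor how many embryos were pooled, and since both Xist and Y-linked RNA were found in separate cells of either library, each came from at least 2 embryos. The wild-type library held 6034 barcodes and the p63-KO library 2821, of which 8 barcodes were found in both, 2 of them intermediate cells. With 1 library per group there were no replicates and no test was made. All intervals are exact 95% intervals that cover counting error only (Poisson for levels, conditional binomial for folds, Clopper-Pearson for shares), and since the cells were chosen by the same counts, every difference between the groups is a description.

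In a stratified squamous epithelium, basal cells divide on the basement membrane and their daughters move up, leave the cell cycle and change their keratins. In the esophagus the suprabasal cells fill with the keratins Krt13 and Krt4, tighten their desmosomes, and make proteins that are later cross-linked under the plasma membrane into a cornified envelope. Transglutaminases do the cross-linking, and serpin and Kazal inhibitors hold back the proteases that loosen the surface cells.

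The median intermediate cell held 14531 UMIs (range 1015 to 75284) of 4156 genes, against 12036 UMIs in the lower keratin band and 18719 in the superficial-gene cells. Its Krt13 and Krt4 sum had a median of 287 CP10K (200.3 to 706), and 54.5% of the cells had no UMI of any of the 5 surface genes. At the keratin threshold, the 48 cells less than 10 CP10K above it had 84.9 CPM of Serpinb3a (UMIs per 1e6 UMIs summed over the group) and 1731 of Calml3, and the 50 cells less than 10 CP10K under it had 68.6 and 2049. At the surface threshold, the 49 cells less than 1 CP10K under it had 136 CPM of Serpinb3a and 3715 of Calml3, and the 34 cells less than 1 CP10K above it had 58.9 and 3063. Of the 971 wild-type cells with at least 200 CP10K of the keratins, 341 had the surface genes at 4 or more, and 2 others had the mitosis genes at 10 or more.

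**Figure D1:**
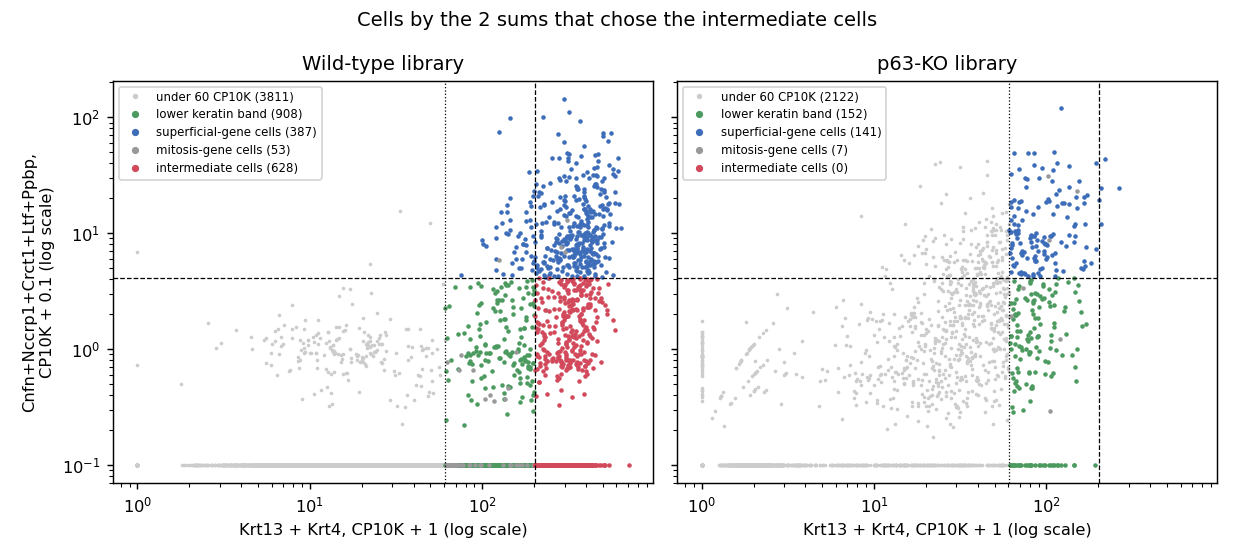
Each point is a cell of the wild-type (left) or p63-KO library (right), placed by the Krt13 and Krt4 sum (x, CP10K + 1, log scale) and the sum of the 5 surface genes (y, CP10K + 0.1, log scale), with the thresholds of 60 and 200 on x and 4 on y as lines. The 628 intermediate cells fill the lower right of the wild-type plot, and 0 cells of the p63-KO library lie there.

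No cell of the p63-KO library met the rule: 0 of 2422, which allows a share of up to 0.124% (3 counts) or 0.152% (exact upper limit). Only 5 p63-KO cells reached 200 CP10K of Krt13 and Krt4, and all 5 carried the surface genes at 4 or more. Those surface-gene UMIs came from Ltf (lactoferrin, an iron-binding secreted protein) with 270 UMIs and Nccrp1 with 11, while Cnfn, which encodes the envelope protein cornifelin, had 0. Among the 300 p63-KO cells with at least 60 CP10K of the keratins, whose median depth was 40156 UMIs, Serpinb3a and Spink5 were at 0 CPM, Lipm at 0.41, Tgm3 at 1.71 and Calml3 at 55.9. Krt5, a basal keratin and a known p63 target, was at 0.068 CPM there against 363 CPM in the intermediate cells. Trp63 RNA itself was at 128 CPM in those p63-KO cells and 127 CPM in the intermediate cells, so 3' counts of this gene did not check the labels. A comparison of intermediate cells between the genotypes therefore had no cells on the p63-KO side.

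The 5 marker genes of this cell group were chosen with earlier results of these data known, so their levels are no outside check. All 5 were higher in the intermediate cells than in the lower keratin band, and 3 of them were also higher than in the superficial-gene cells. Serpinb3a, an intracellular serpin that inhibits proteases (mm10, chr1:107045587-107052303, minus strand), had 136 CPM (129 to 143) in the intermediate cells, 32.6 in the lower band and 59.5 in the superficial-gene cells. That was 4.17-fold (3.74 to 4.65) above the lower band and 2.28-fold (2.07 to 2.52) above the superficial-gene cells. Its copies Serpinb3b, Serpinb3c and Serpinb3d are near-identical in sequence and were at 0.184, 0 and 0 CPM in the intermediate cells, so how reads were shared among the 4 genes is uncertain. Lipm, an acid lipase of keratinocytes (chr19:34100933-34122687, plus strand), had 22.5 CPM (19.8 to 25.5) against 7.76 and 13.4. Spink5, the Kazal inhibitor LEKTI of skin kallikreins, had 136 CPM (129 to 143) against 39.3 and 109, only 1.24-fold (1.14 to 1.35) above the superficial-gene cells. Tgm3, a transglutaminase (chr2:130012349-130050399, plus strand), stood at 376 CPM (364 to 387) against 119 and 395, and Calml3, a calmodulin-like calcium sensor of epithelia (chr13:3802896-3804316, minus strand), at 3074 CPM (3041 to 3107) against 899 and 3475. These last 2 genes therefore set the cells apart from the lower band and not from the superficial-gene cells. In the 3811 wild-type cells with less than 60 CP10K of the keratins, the 5 genes ranged from 0.602 CPM (Lipm) to 33.7 CPM (Calml3).

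Shares of cells gave the same order. With every cell thinned down to 2000 UMIs (7 intermediate cells, 18 of the lower band and 6 superficial-gene cells were shallower and left out), Serpinb3a had a UMI in 23.2% of intermediate cells, 5.17% of the lower band and 9.71% of superficial-gene cells, and in 70.1% of intermediate cells without thinning. Ciliated cells should lack squamous genes. They were 23 cells with UMIs of at least 3 of 12 ciliated markers and under 60 CP10K of the keratins (median depth 21209 UMIs). The keratin limit itself favours low squamous levels, so these cells are not an independent check. In the 22 ciliated cells deep enough for thinning, the share with Serpinb3a was 0, which allows up to 13.6%. Calml3 had a UMI in 93.7% of thinned intermediate cells, 41.8% of the lower band, 99.7% of superficial-gene cells and 9.09% of ciliated cells. Tgm3 had one in 44.4%, 15.2%, 49.6% and 4.55% of these cells.

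**Figure D2:**
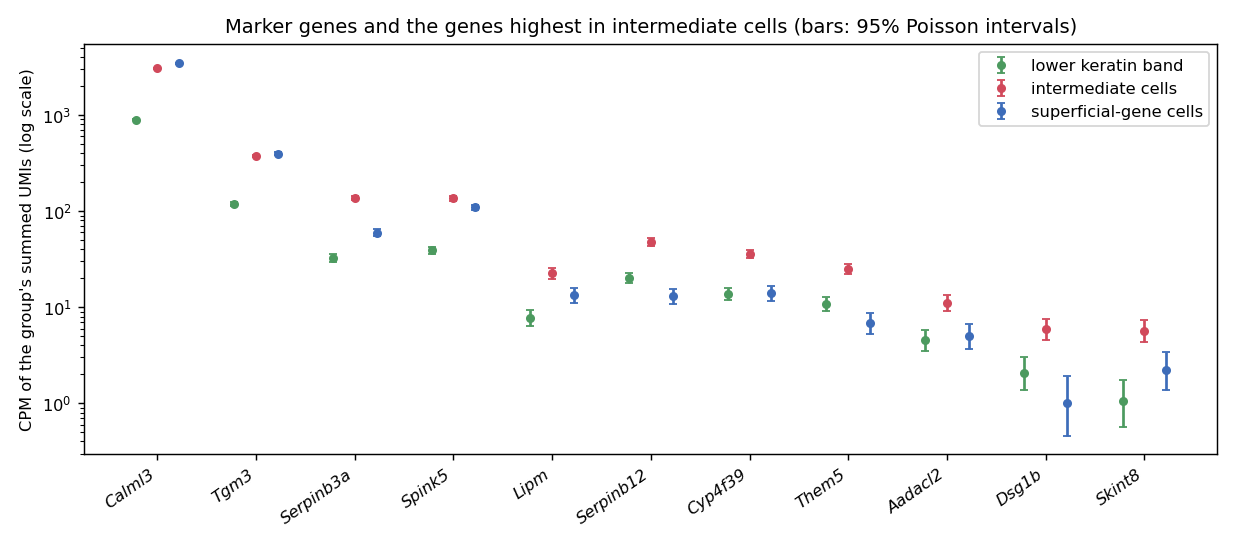
Points show CPM of the summed UMIs (y, log scale) of the 5 marker genes and of the genes at least 2-fold above both neighbours in the lower keratin band, the intermediate cells and the superficial-gene cells, with exact 95% Poisson intervals. Serpinb3a peaked in the intermediate cells (136 CPM against 32.6 and 59.5), while Calml3 and Tgm3 were about level with the superficial-gene cells.

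To show what lies upstream of genes that mark these cells, the 250 bases before the RefSeq start are printed for 3 genes that were higher than in the lower band and carry the letters TGANTCA there (Krt13, Sprr1a and Ecm1), for 2 markers that do not (Serpinb3a and Tgm3), and for Krtdap, which went the other way. Capitals mark matches, on either strand, to TATAAA (the TATA box), TGANTCA (bound by AP-1 factors), AACCGG (bound by Grhl factors) and CCCNCCC (bound by Klf and Sp factors). Krt13 belongs to the rule, so its higher level was set by the choice of the cells. The build is GRCm38 (mm10), and positions run 5' to 3' on the gene's strand.
Serpinb3a: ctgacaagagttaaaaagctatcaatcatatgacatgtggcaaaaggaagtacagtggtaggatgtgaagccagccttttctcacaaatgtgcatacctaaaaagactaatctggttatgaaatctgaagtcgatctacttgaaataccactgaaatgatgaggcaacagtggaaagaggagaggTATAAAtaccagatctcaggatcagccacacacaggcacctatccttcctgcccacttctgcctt
Tgm3: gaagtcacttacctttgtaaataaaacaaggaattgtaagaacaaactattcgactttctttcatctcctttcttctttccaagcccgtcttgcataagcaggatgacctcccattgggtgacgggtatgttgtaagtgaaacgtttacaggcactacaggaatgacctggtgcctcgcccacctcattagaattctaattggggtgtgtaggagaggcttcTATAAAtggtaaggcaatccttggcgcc
Krt13: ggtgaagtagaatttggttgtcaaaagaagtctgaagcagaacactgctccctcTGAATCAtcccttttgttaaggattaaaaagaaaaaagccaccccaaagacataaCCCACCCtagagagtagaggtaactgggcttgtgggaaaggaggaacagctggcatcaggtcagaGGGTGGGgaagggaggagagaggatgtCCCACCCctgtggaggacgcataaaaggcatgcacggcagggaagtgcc
Sprr1a: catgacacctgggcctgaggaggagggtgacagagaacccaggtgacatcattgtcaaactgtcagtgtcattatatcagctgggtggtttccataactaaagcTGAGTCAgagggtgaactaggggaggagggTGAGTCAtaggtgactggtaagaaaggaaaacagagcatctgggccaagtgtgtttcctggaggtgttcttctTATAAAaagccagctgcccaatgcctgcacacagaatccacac
Ecm1: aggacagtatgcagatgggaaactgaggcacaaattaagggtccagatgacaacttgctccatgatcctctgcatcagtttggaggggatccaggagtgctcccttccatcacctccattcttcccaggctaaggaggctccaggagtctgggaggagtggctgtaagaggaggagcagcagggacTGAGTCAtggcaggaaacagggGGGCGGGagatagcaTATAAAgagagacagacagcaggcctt
Krtdap: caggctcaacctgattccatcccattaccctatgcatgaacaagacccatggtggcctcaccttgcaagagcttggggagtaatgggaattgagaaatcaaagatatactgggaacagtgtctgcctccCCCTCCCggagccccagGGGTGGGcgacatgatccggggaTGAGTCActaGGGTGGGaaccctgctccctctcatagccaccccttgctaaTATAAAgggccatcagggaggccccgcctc
They lie at chr1:107052304-107052553 (minus strand), chr2:130012090-130012339 (plus strand), chr11:100121567-100121816 (minus strand), chr3:92485882-92486131 (minus strand), chr3:95739570-95739819 (minus strand) and chr7:30787655-30787904 (plus strand). Krt13 has 2 entries in the table and the first is shown. TGANTCA began 196 bases before the start of Krt13, 64 before that of Ecm1, 81 before that of Krtdap, and 146 and 116 before that of Sprr1a. The TATA box began 28 bases before the start of Tgm3, 27 before that of Ecm1, 30 before that of Krtdap, 43 before that of Sprr1a and 65 before that of Serpinb3a.

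The same letters were counted in the 250 bases before every gene of that table. TGANTCA stood in 6.87% of all 27025 genes with an entry, in 4.06% of the 8447 that were measured against the lower band, and in 18.3% (32) of the 175 with an entry that were at least 2-fold higher in the intermediate cells. For TATAAA the 3 shares were 13%, 5.88% and 15.4%, for AACCGG 5.55%, 9.41% and 4.57%, and for CCCNCCC 44.4%, 64.7% and 53.7%. These are counts of letters, with no test, and a match is not a binding site. The genes of the rule, such as Krt13, were not left out of the sets.

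Against all 1348 other Krt13 and Krt4 cells, the intermediate cells had 16 of 10380 measured genes (0.154%) higher by 2-fold or more and 417 (4.02%) lower by as much. Measured genes had at least 5 CPM in 1 of the groups and 20 UMIs in both together, and fold thresholds were applied to CPM with 1 added. Against the lower band alone, 240 of 10654 genes (2.25%) were higher and 743 (6.97%) lower, and against the superficial-gene cells 238 of 10067 (2.36%) were higher and 264 (2.62%) lower. The median log2 ratio of all measured genes was -0.17 against the lower band and 0.19 against the superficial-gene cells, so a gene that kept pace with the others sat slightly off 0. Of the 9892 genes measured in both comparisons, 70.3% lay between the neighbours, 18.0% above both and 11.7% below both.

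Genes that peaked in the intermediate cells were few: 7 of 9892 genes (0.0708%) were at least 2-fold above both neighbours. Besides Serpinb3a these were Serpinb12, Cyp4f39, Them5, Aadacl2, Dsg1b and Skint8. Serpinb12, another intracellular serpin, had 47.8 CPM (43.8 to 52.1) against 20.2 in the lower band and 13 in the superficial-gene cells, but 250 CPM in the 23 ciliated cells. Cyp4f39, a P450 that hydroxylates the very long fatty acids of skin ceramides, had 35.6 CPM (32.2 to 39.4) against 13.9 and 14.1. Them5, a mitochondrial acyl-CoA thioesterase, had 25.3 CPM (22.4 to 28.4) against 10.9 and 6.82. The other 3 were near the floor of measurement: Aadacl2 at 11.1 CPM against 4.55 and 5.03, the desmosomal cadherin Dsg1b at 5.88 against 2.09 and 1.01, and Skint8 at 5.69 against 1.04 and 2.23. Dsg1b and Skint8 belong to families of similar genes, so their counts are uncertain too. With 5 CPM added instead of 1, 3 of the 7 stayed above the 2-fold line, and with the keratin threshold at 300 CP10K, 2 did.

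At a minimum of 100 CPM the genes furthest above both neighbours formed a wider group. Paqr6, a membrane progestin receptor, stood at 197 CPM against 101 and 114. Dlg2, a scaffold protein under the plasma membrane, had 130 CPM against 81.8 and 37.5, and Idi1, an enzyme of cholesterol synthesis, 255 CPM against 168 and 171. Sfn (14-3-3 sigma, known in keratinocyte cell cycle exit) had 1512 CPM against 908 and 1048, and the water and glycerol channel Aqp3 795 CPM against 560 and 488. Pycard, an inflammasome adaptor, had 472 CPM against 306 and 301.

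The desmosome, the junction that ties squamous cells together, was the list with the largest share of such genes. Of its 11 members measured in both comparisons, 9 were above both neighbours, against 18.0% of all genes, and its median log2 ratio was 0.44 to the lower band and 0.49 to the superficial-gene cells. Perp, a membrane protein of desmosomes and a p63 target, had 2390 CPM (2361 to 2419) against 1484 and 1679. Dsp, the plaque protein desmoplakin, had 1806 CPM (1781 to 1831) against 1401 and 1118. The cadherin Dsg3 had 773 CPM (756 to 789) against 543 and 434, and its partner Dsc2 548 CPM (534 to 562) against 313 and 397. Exceptions were Dsg2, at 55.3 CPM against 86.7 and 58.0, and Pkp2, at 11.7 against 5.90 and 16.1. Dsc3 had 2.85 CPM against 10.2 and 1.12. In single cells the summed desmosome list had a median of 68.0 CP10K (quartiles 57.0 and 79.4) in the intermediate cells, against 46.5 in the lower band and 46.0 in the superficial-gene cells. Of the 12 members measured against the lower band, 1 was at least 2-fold higher (Dsg1b) and 1 lower (Dsc3), against 2.25% and 6.97% of all genes. Most of the differences were therefore under 2-fold.

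Of the genes of barrier lipid synthesis 14 of 24 were above both neighbours, against 18.0% of all genes. The fatty acid carrier Fabp5 led them with 2972 CPM (2940 to 3005) against 2242 and 1605, followed by Sptlc3, a subunit of the first enzyme of sphingolipid synthesis, at 206 CPM against 149 and 156. Acsl1 had 130 CPM against 95.6 and 79.4, and the elongase Elovl6 130 against 113 and 87.8. The lipoxygenases did not share this pattern: Alox15 was at 410 CPM against 136 and 478, and Alox12b at 13.6 against 2.69 and 29.7. The lipid transporter Abca12 had 0.0918 CPM and the elongase Elovl4 0.551 CPM, both under the 5 CPM minimum.

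Cornified envelope genes stood well above the lower band and mostly below the superficial-gene cells. Of 15 measured members 7 exceeded the lower band by 2-fold or more and 0 were as far under it, against 2.25% and 6.97% of all genes. The median log2 ratio was 0.95 to the lower band and -0.33 to the superficial-gene cells, and 11 of 15 lay between the 2 neighbours, close to the 70.3% of all genes. Sprr1a, a small proline-rich envelope precursor, had 342 CPM (331 to 353) against 82.3 and 478, and Sprr3, its relative, 127 against 39.7 and 498. The plakin Evpl (envoplakin) had 493 CPM against 201 and 631, and its partner Ppl (periplakin) 868 against 450 and 1127. Asprv1, a retroviral-like aspartic protease, had 488 CPM (475 to 501) against 114 and 1322. Ecm1, an extracellular matrix protein of the epidermis that is not in this list, had 107 CPM (101 to 113) against 27.2 and 540. Dmkn (dermokine) was above both, at 1195 CPM against 721 and 860. The list had 40 members, of which most did not reach the minimum level in these cells.

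Protease inhibitors had a median log2 ratio of 1.35 to the lower band, next to 1.34 for the antimicrobial list, and these were the 2 highest of the 21 lists. The antimicrobial median included Ltf, a surface gene of the rule. Of 16 measured members 11 were at least 2-fold higher and 0 lower, against 2.25% and 6.97% of all genes. Besides Serpinb3a, Spink5 and Serpinb12, Serpinb1a had 136 CPM (129 to 143) against 35.7 and 166, and Serpinb11 136 CPM (129 to 143) against 32.1 and 319. Csta1, a cysteine protease inhibitor of the stefin family with close copies, had 155 CPM against 52.0 and 466. Serpinb5 (maspin) was level with the lower band, 167 CPM in both, and higher than the 105 CPM of the superficial-gene cells. Of the list, 6 members were above both neighbours and 10 lay between them, against 18.0% and 70.3% of all genes. Among the proteases themselves, 6 of 21 exceeded the lower band by 2-fold or more, against 2.25% of all genes, and 1 was as far under it, near the 6.97% of all genes. Klk10, a kallikrein, was the lower one, at 9.55 CPM against 31.9.

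**Figure D3:**
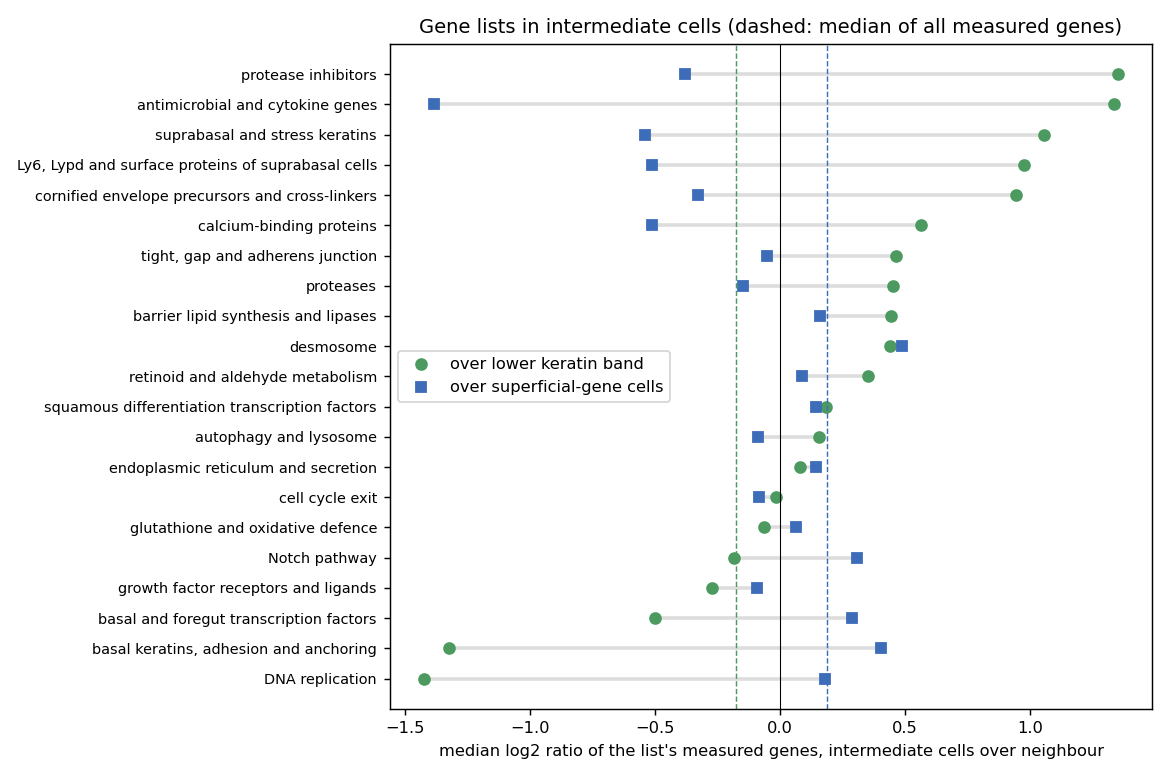
For each of 21 gene lists the median log2 ratio of its measured genes is shown for intermediate cells over the lower keratin band (circles) and over the superficial-gene cells (squares), with dashed lines at the median of all measured genes (-0.17 and 0.19). Among the circles protease inhibitors (1.35) and antimicrobial genes (1.34) lie furthest right and DNA replication (-1.42) and basal keratins (-1.32) furthest left, and the 2 medians of the desmosome, 0.44 and 0.49, nearly coincide. Genes of the rule were kept in the lists.

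Most basal keratins and anchoring genes were lower than in the lower band. Of 21 measured members 13 were 2-fold or more under the lower band and 0 above, against 6.97% and 2.25% of all genes, and the median log2 ratio was -1.32. Krt14, the keratin partner of Krt5, had 34.8 CPM (31.4 to 38.5) against 174 in the lower band and 468 in the cells under 60 CP10K. Col17a1, a collagen of the hemidesmosome, had 46.7 CPM against 191, and the integrin subunit Itgb4 22 against 82.1. Krt5 kept 363 CPM (352 to 375) against 648 in the lower band. Krt15, also a basal keratin, went the opposite way, with 12568 CPM (12501 to 12635) in the intermediate cells, 7756 in the lower band, 15281 in the superficial-gene cells and 9759 in the cells under 60 CP10K. The superficial-gene cells were mostly lower still: 18 of the 21 members lay below the lower band and above the superficial-gene cells. Of all genes, 70.3% lay between the neighbours in either direction, and 70.3% were above the superficial-gene cells. The list's median log2 ratio to the superficial-gene cells was 0.41 (0.19 for all genes), but -0.17 with the keratins from 300 CP10K. Col17a1 had 31.1 CPM in the superficial-gene cells and Krt5 261, while Krt14, at 31.4, was within the interval of the intermediate level. The summed list did not fall: its median in single cells was 138 CP10K in the intermediate cells, against 106 in the lower band and 174 in the superficial-gene cells. Krt15 was its only member with at least 1000 CPM in the intermediate cells.

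The genes furthest below the lower band at 100 CPM or more were Cdh13 (T-cadherin, 40.5 CPM against 264), the growth factor Ptn (27.7 against 148), the matrix protein Sparc (19.4 against 104) and the growth factor Pdgfa (26 against 102). In the superficial-gene cells these 4 were close to the intermediate level, at 41.9, 32.3, 20.4 and 21.6 CPM. The stem cell receptor Lgr5 had 2.39 CPM against 24.3 and the ligand Wnt10a 6.61 against 43.9.

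DNA replication genes had a median log2 ratio of -1.42 to the lower band, with 21 of 26 at least 2-fold lower and 0 higher, against 6.97% and 2.25% of all genes. In the cells with Xist RNA alone the median was -1.13, less low than the -1.49 of the basal keratin list there. Hells, a chromatin remodeller of S phase, had 5.79 CPM against 33.7, and the helicase subunit Mcm5 1.93 against 10.4. The G1 cyclin Ccnd1 had 15.6 CPM (13.4 to 18.1) against 85.8 and 13.2. The rule held the intermediate cells and the lower band to the same limit on 4 mitosis genes, and 78.8% of the intermediate cells had no UMI of those 4. Ccnd2 had its lowest level in the intermediate cells, at 152 CPM (145 to 160) against 390 in the lower band and 287 in the superficial-gene cells. The cell cycle inhibitor Cdkn1a had 510 CPM against 334 and 540.

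Of 38 measured transcription factors of squamous differentiation, 1 exceeded the lower band by 2-fold and 2 were as far under it, against 2.25% and 6.97% of all genes. The median log2 ratio of the list was 0.19, and 14 of the 38 were above both neighbours, against 18.0% of all genes. Of 26 measured factors of basal and foregut cells, 5 were at least 2-fold lower than in the lower band and 0 higher, against 6.97% and 2.25% of all genes, with a median log2 ratio of -0.50. Zfp750, a regulator of terminal differentiation, had 204 CPM against 130 and 181, and the barrier factor Grhl3 141 against 92.7 and 114. Klf4 and Klf5 were nearly flat, at 226 CPM against 183 and 241, and at 885 CPM against 809 and 799. Trp63 had 127 CPM (120 to 134), less than the 191 CPM of the lower band and more than the 70.0 of the superficial-gene cells. Notch1, the receptor that drives suprabasal fate, had 109 CPM (103 to 115) against 194 and 41.9, while Notch3 had 159 against 139 and 101 and the ligand Jag1 94.8 against 73.1 and 64.9. Of 14 measured Notch pathway genes 2 were at least 2-fold lower than in the lower band, against 6.97% of all genes, among them the ligand Jag2 (4.59 CPM against 21.0).

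Of 24 measured surface proteins of the Ly6, Lypd and uroplakin kind, 11 were at least 2-fold above the lower band and 0 below, against 2.25% and 6.97% of all genes. Their median log2 ratio was 0.98 to the lower band and -0.51 to the superficial-gene cells. Of the 24, 17 lay between the neighbours, close to the 70.3% of all genes. Ly6d, a GPI-anchored protein, had 4088 CPM (4050 to 4126) against 1262 and 5163. Psca, another such protein, had 2067 CPM (2040 to 2095) against 753 and 11261, one of the steepest gaps toward the superficial-gene cells. Mal, a membrane protein of raft transport, had 1500 CPM against 539 and 5402, and the uroplakin Upk1b 1434 against 557 and 2114. Lypd3 was slightly above both, at 285 CPM against 109 and 250. In the antimicrobial list 4 of 6 genes exceeded the lower band by 2-fold or more, against 2.25% of all genes, with the defensin Defb4 at 12.6 CPM against 2.39, but its most abundant surface gene, Ltf, belonged to the rule.

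Genes higher than in the superficial-gene cells were led, at 100 CPM or more, by Krtdap and Megf11. Krtdap, a secreted protein of differentiating keratinocytes (chr7:30787896-30791097, plus strand), had 159 CPM (152 to 167) against 203 in the lower band and 32.5 in the superficial-gene cells. Megf11, an EGF-repeat receptor, had 227 CPM against 275 and 62.6. The imprinted RNA H19 had 991 CPM against 2206 and 332. On the other side, Fut9, a fucosyltransferase, had 51.4 CPM against 36.4 and 292, Gabrp 19.1 against 11.9 and 101, and Arg1, the arginase of urea synthesis, 323 against 93.1 and 1522.

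The intermediate cells were not uniform along the keratin sum. Serpinb3a had 62.7 CPM (55.3 to 70.7) in lower-band cells at 150 to 200 CP10K, then 92.4, 137, 167 and 183 (158 to 211) in intermediate cells at 200 to 250, 250 to 300, 300 to 400 and from 400 CP10K. In superficial-gene cells with 4 to 8 CP10K of the surface genes it had 69.0 CPM (60.8 to 78.0), and 39.1 (31.6 to 47.8) from 16. Krtdap had 216 CPM (201 to 232) at 200 to 250 CP10K and 67.4 (52.6 to 85.0) from 400, so within the intermediate cells its level went against that of Serpinb3a. Cyp4f39 had 31.5, 34.5, 41.1 and 34.2 CPM over the same 4 bins and 19.7 (15.4 to 24.7) in the first superficial bin. Them5 had 29.5 CPM (24.1 to 35.6) at 300 to 400 CP10K and 6.47 (4.14 to 9.62) in that superficial bin. Psca had 1243, 1526, 2794 and 3797 CPM over the 4 bins and 7403 in the first superficial bin. The keratin sum chose the bins. Intervals of some neighbouring bins overlap, such as those of Cyp4f39, and differences between bins were not tested.

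**Figure D4:**
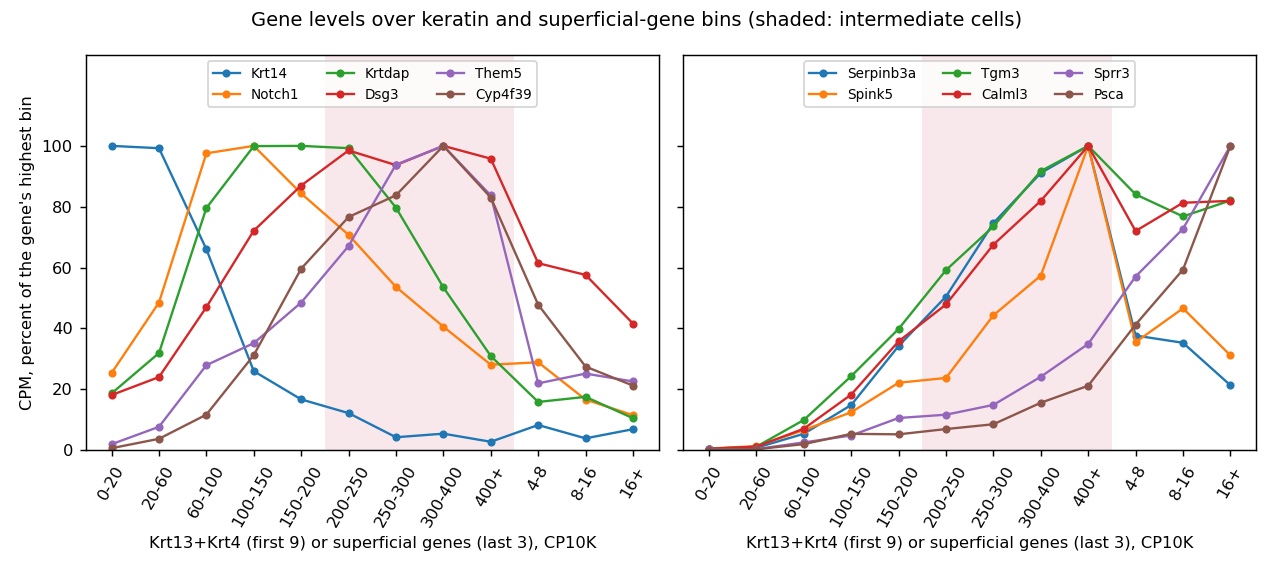
Levels of 12 genes are shown as percent of the gene's highest bin (y), over 9 bins of the Krt13 and Krt4 sum in cells with few surface genes and 3 bins of the surface-gene sum in superficial-gene cells (x, CP10K); shading marks the intermediate cells. Krtdap drops from 216 to 67.4 CPM across the shaded bins while Serpinb3a climbs from 92.4 to 183 CPM and then falls to 69.0 CPM.

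Among the genes with at least 100 CPM, the 10 that varied most between intermediate cells beyond their mean were S100a6, Psca, Malat1, Gsto1, Tmsb4x, Mal, Anxa1, Ly6d, Cbr2 and Krt15. In the 342 intermediate cells without a surface-gene UMI, Psca had 656 CPM, Mal 700 and Gsto1, a glutathione transferase, 4226, and in the 286 with at least 1 such UMI they had 3218, 2152 and 8741. The second group was also deeper, with a median of 16664 UMIs against 13598, and the part of depth in this gap was not tested. Krtdap went the other way, 235 CPM against 97.5, and so did Them5, 34.8 against 17.5, while Serpinb3a had 147 and 126 CPM. At 2000 UMIs per cell, Psca had a UMI in 39.1% (30.8 to 47.9) of the 133 intermediate cells with Krtdap and in 64.8% (60.3 to 69.0) of the 488 without. Krt78, a late keratin, was found in 0 of the 133 (up to 2.74%) and in 5.12% of the 488. Serpinb3a did not follow this split, with 21.8% and 23.6%. These pairs were chosen after their values were seen.

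The embryos gave another split within the intermediate cells: 386 cells had Xist RNA and no Y-linked RNA, 169 the reverse, and 56 (8.92%) had both. Whether the last came from 2 cells in 1 droplet or from free RNA was not tested. Both sets came from 1 library, so each stands for the pooled embryos of one sex, and sex and embryo cannot be told apart. In the cells with Y-linked RNA 24 of 10048 measured genes (0.239%) were higher by 2-fold or more and 135 (1.34%) at least 2-fold lower, leaving aside Xist and Y-linked genes. Spink5 had 214 CPM in the cells with Y-linked RNA and 91.0 in those with Xist RNA, 2.35-fold (2.09 to 2.63), and it was 206 against 67.2 in the superficial-gene cells and 50.9 against 29.6 in the lower band. Within the cells with Y-linked RNA the intermediate and the superficial-gene level of Spink5 thus lay close together. Tgm3 had 473 against 336 CPM, Krtdap 220 against 136 and Serpinb3a 146 against 136. Lower in the cells with Y-linked RNA were 4 genes known for their fast response to stimuli, picked singly and not as a list: Fos had 306 CPM against 782, Atf3 28.0 against 121, Fosb 71.7 against 190 and Dusp1 65.5 against 209. The noncoding Gt(ROSA)26Sor had 16 CPM in the cells with Y-linked RNA and 56.3 in those with Xist RNA. For these 5 genes the gap had the same direction in the lower band and the superficial-gene cells, and they were chosen after their values were seen.

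**Figure D5:**
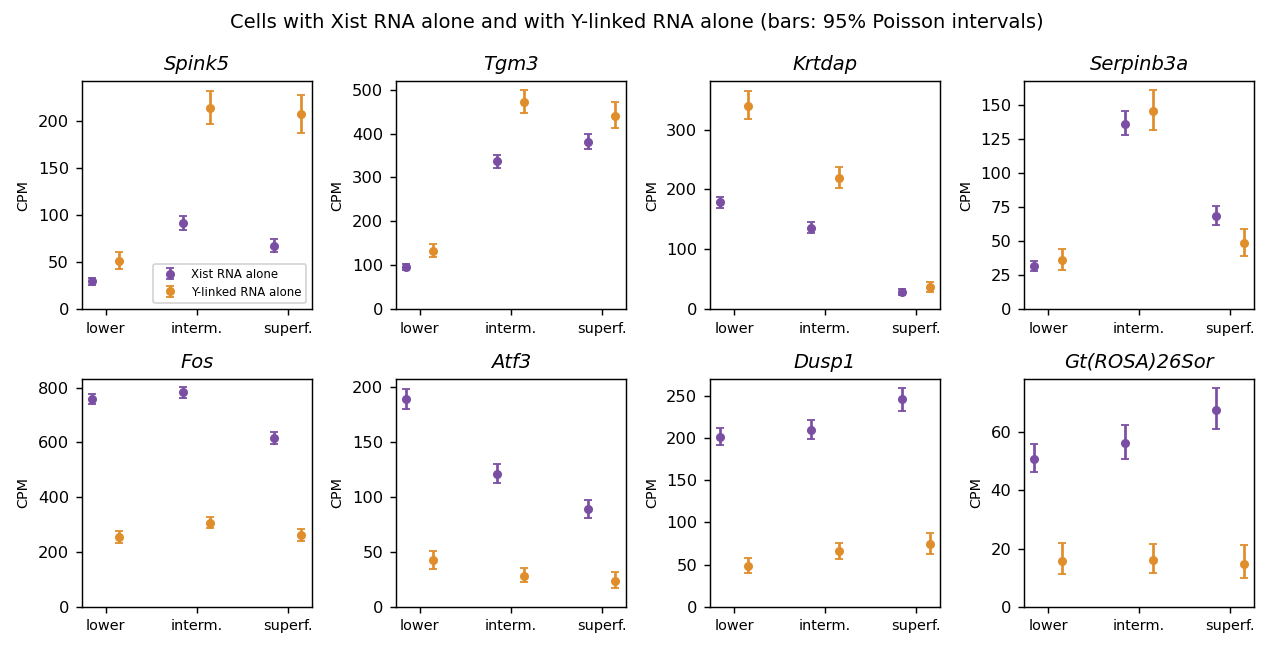
CPM (y) of 8 genes in cells with Xist RNA alone and with Y-linked RNA alone, in the lower keratin band, the intermediate cells and the superficial-gene cells, with exact 95% Poisson intervals. Spink5 was higher and Fos, Atf3, Dusp1 and Gt(ROSA)26Sor lower in the cells with Y-linked RNA in all 3 groups, while the intervals of Serpinb3a overlapped in the intermediate cells.

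Genes lower than in both neighbours by at least 2-fold numbered 10 of 9892 (0.101%), among them Glul, the glutamine synthetase, at 14.5 CPM against 36.1 and 35.2, and Col3a1, a fibroblast collagen, at 0.643 CPM against 9.11 and 7.37. Markers of other cell types were scarce in the intermediate cells. The 12 ciliated markers summed to 33.0 CPM, against 112 in the lower band, 70.0 in the superficial-gene cells and 7361 in the ciliated cells, and none was at 0. The 6 fibroblast markers, Col3a1 among them, summed to 4.22 CPM against 40.8 and 20.8. The 6 mucous markers summed to 11.8 CPM, with Muc5b at 0, and the 6 immune markers to 9.0, with Ptprc, Lyz2 and Tyrobp at 0. Their part in the results was not tested.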

How the data were processed

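The deposited matrices hold UMI counts per gene and cell barcode, made by the authors with Cell Ranger 7.1.0 on the mouse build mm10, per the submitters' processing notes. Per the labels, the muscle was removed, the epithelium was dissociated with dispase and trypsin, and a 3' droplet kit was used. Which annotation release and strand setting were used is not given in the sources used here. UMIs summed to 76472445 in the wild-type matrix and to 86504624 in the p63-KO matrix, over 32285 genes; 40 symbols occur more than once and their first row was used by name.

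Counts were read with Python 3.11.15 (numpy 2.4.6, scipy 1.17.1, pandas 2.3.3). Cells were grouped by the thresholds of the report. UMIs were summed over each group and scaled to CPM, and log2 ratios were taken with 1 CPM added, which understates low genes; folds were taken without it. A gene was measured from 5 CPM in either group and 20 UMIs in both together, and called at 2-fold. The routine was tested on data with known answers. Shares were taken after thinning to 2000 UMIs. Doublets were kept, and removal at 0.8% per 1000 cells (268 wild-type cells, 24 of them intermediate) was an alternative; they were scored with scikit-learn 1.9.0 by neighbours among summed pairs of cells (20 components, 30 neighbours). The members, the 5 markers, the 21 gene lists (616 genes) and the thresholds were chosen with earlier results of these data known. Named were the rule genes, the 5 markers, the list members with the largest ratios or at least 1000 CPM, the 12 highest and lowest genes of each comparison with at least 100 CPM and a UMI in 10% of cells, and the 10 most variable. Other genes, among them the second members named in a list, Cdkn1a, Klf4, Klf5, Evpl, Ppl, Csta1, Serpinb5 and the embryo genes, were picked with their values in view. Gene coordinates come from GENCODE M21 (mm10), and promoter sequences are RefSeq's on GRCm38.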

Additional observations from a re-analysis of the deposited data

How the results depend on the processing

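Counts of genes past 2-fold depended on several settings. Against all other Krt13 and Krt4 cells the 16 higher genes became 30 with each cell's CPM averaged, 4 with 5 CPM added, 9 among genes from 20 CPM, 75 with cells thinned to 2000 UMIs and 34 when the Y-linked cells were taken alone. The 417 lower genes became 168 with 5 CPM added, 142 from 20 CPM, 647 from 1 CPM, 638 with the keratins from 300 CP10K and 640 after thinning. Against the lower band, the 240 higher genes became 148 with 5 CPM added and 385 in the Y-linked cells, and the 743 lower genes 324 with 5 CPM added and 279 from 20 CPM. Against the superficial-gene cells, the 238 higher genes became 85 with 5 CPM added, 112 from 20 CPM, 416 with the keratins from 150 CP10K, 94 from 300, 496 with the surface genes under 8, 576 after thinning and 744 in the Y-linked cells, and the 264 lower genes 165 with 5 CPM added and 147 from 20 CPM. Thinning and the Y-linked subset leave fewer UMIs per gene by construction. The cause of the shifts was not tested.

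The other 67 recomputed counts stayed within 1.5 times. Over 15 alternatives Serpinb3a stayed above both neighbours, with its smaller log2 ratio between 0.86 and 1.57, while Tgm3 changed sides against the superficial-gene cells in 3 and Calml3 in 1. Of the 7 genes 2-fold above both neighbours, 3 remained so with 5 CPM added, 2 with the keratins from 300 CP10K and 3 to 7 under the other alternatives. Removing scored doublets left 604 intermediate cells. It took 3.82% of the intermediate cells, 9.36% of the lower band, 5.17% of the superficial-gene cells and 39.6% of the 53 mitosis-gene cells. No p63-KO cell met the rule, so that comparison was not run. No paired analysis was possible because each group is 1 library. With no replicates, no difference has an error beyond counting.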
